A study of Mus musculus with 20 samples.

Results

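Glutamine and proline metabolism was followed here through 6 genes for enzymes that make or break down glutamine, glutamate, proline and aspartate: Glul, Glud1, Prodh, Aldh4a1, Got1 and Got2. They are 6 of the 24059 genes counted. The set was chosen by the levels of Glul and Prodh over the 4 groups of the study, so the values of those genes are given as a description with no test. The levels of Glud1, Aldh4a1, Got1 and Got2 did not choose the set, and their differences were tested in a model of all genes. Members, lists and tests were all chosen with earlier results of these data known, which the p-values do not allow for.

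Glutamate stands at the centre of this network. Glul, glutamine synthetase, joins ammonia to glutamate to give glutamine, and Glud1, mitochondrial glutamate dehydrogenase, interconverts glutamate and 2-oxoglutarate. Prodh, proline dehydrogenase, takes the first step of proline breakdown in mitochondria, and Aldh4a1 turns the product of that pathway into glutamate. Got1 in the cytosol and Got2 in mitochondria move an amino group between glutamate and aspartate. With the malate dehydrogenases and exchange carriers of the inner membrane they form the malate-aspartate shuttle, which carries reducing equivalents into mitochondria and is prominent in heart muscle. The glucocorticoid receptor is a steroid-activated transcription factor, and glutamine synthetase is a textbook glucocorticoid-responsive enzyme in several tissues.

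The data are RNA-seq counts of the left ventricular free wall from male C57BL/6 mice, adults of about 9 to 13 weeks, with 5 libraries in each of 4 groups. In every animal both alleles of Nr3c1, which encodes the glucocorticoid receptor, were floxed (GRfl/fl). The GRflox group had these alleles alone, and its CardioGRKO littermates also carried 1 copy of a Cre recombinase expressed in cardiomyocytes from the promoter of alpha myosin heavy chain (GRfl/fl alphaMHCCre/+). Loss of the receptor and presence of Cre cannot be told apart in these groups. Hearts were collected at ZT0, the start of the light phase, or at ZT12, the start of the dark phase, with no drug treatment named. The questions are how the enzymes differ between genotypes at each time, between times in each genotype, and whether the time difference depends on genotype. Nothing in the labels says more of the replicates than their number, so p-values measure the spread between these libraries.

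Depth ran from 5854462 to 37648421 counts per library (median 23223656), and replicate 1 of CardioGRKO at ZT0 was the shallowest. Its deposited file also carries a run number that differs from that of the other 19. The targeted gene Nr3c1 stood at 115 ± 6.11 CPM (counts scaled to library size; SD, n = 5) in GRflox and 55.2 ± 3.51 in CardioGRKO at ZT0, and at 107 ± 7.98 and 51.0 ± 3.50 at ZT12. Every CardioGRKO library lay below every GRflox library. Counts are of the whole gene in bulk tissue, so the source of the remaining Nr3c1 counts was not tested. The 7 cardiomyocyte markers summed to between 85890 and 107011 CPM, while the lymphocyte, adipocyte and skeletal muscle fibre markers summed to at most 6.75 CPM. The 4 globin genes were listed at 0 in all libraries.

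The promoters of the genes that differed most are shown because the targeted gene, Nr3c1, encodes a transcription factor. Each run covers 250 bases before to 50 after a RefSeq start site on GRCm38.p6, the assembly also called mm10, and capitals mark every match to the motifs searched. The windows are chr1:153899679-153899978 (plus strand) for Glul, chr16:18089141-18089440 (minus strand) for Prodh and chr19:43524556-43524855 (minus strand) for Got1. The gene span of Prodh starts at chr16:18089283 on that strand, inside the upstream part of its window, so this window follows a start site within the gene. The Aldh4a1 window, also searched, is placed likewise.
Glul: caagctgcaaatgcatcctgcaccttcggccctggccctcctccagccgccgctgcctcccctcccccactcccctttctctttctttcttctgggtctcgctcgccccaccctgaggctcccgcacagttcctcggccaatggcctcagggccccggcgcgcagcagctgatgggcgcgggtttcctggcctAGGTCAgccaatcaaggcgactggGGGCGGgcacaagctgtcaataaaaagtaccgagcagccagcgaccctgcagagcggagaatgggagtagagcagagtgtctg
Prodh: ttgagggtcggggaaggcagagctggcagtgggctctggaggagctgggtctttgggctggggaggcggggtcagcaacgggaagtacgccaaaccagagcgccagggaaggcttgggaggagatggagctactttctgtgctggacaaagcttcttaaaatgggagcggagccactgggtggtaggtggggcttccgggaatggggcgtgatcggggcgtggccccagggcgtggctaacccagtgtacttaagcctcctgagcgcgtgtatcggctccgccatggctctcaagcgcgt
Got1: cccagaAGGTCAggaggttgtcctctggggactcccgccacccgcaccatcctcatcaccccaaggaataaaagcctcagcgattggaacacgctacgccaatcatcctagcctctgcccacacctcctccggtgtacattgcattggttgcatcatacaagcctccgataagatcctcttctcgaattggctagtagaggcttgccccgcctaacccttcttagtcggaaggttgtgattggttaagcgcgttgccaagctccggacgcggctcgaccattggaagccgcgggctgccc
The motifs searched on both strands were the full glucocorticoid response element, the hexamer AGAACA that lies within it, the E-box CACGTG, the D-box TTATGTAA, the ROR element core AGGTCA, the cAMP response element TGACGTCA, a FOXO site GTAAACA, the TATA box TATAAA and the GC box GGGCGG. The Glul window holds AGGTCA at -57 and GGGCGG at -33 from the start site. Got1 holds AGGTCA at -244. The Prodh window, like that of Aldh4a1, matched none of the 9 motifs. Got2 matched AGGTCA on the minus strand at -103 and the TATA box at -142, and Glud1 matched the GC box at -148, -142 and -23. AGGTCA occurs in 16.3% and GGGCGG in 35.7% of 32851 promoters of the same length, whereas the full glucocorticoid element occurs in 0.00913%. TATAAA occurs in 13.6%, AGAACA in 19% and CACGTG in 7.15% of them, and TTATGTAA, TGACGTCA and GTAAACA in 0.938%, 1.79% and 3.65%. A match is only a run of letters, and these windows cover no distant element.

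Glul (Entrez 14645; chr1:153899929-153909723, plus strand) was the member with the widest time difference. In GRflox at ZT0 its 5 libraries read 536, 462, 552, 532 and 629 CPM, and at ZT12 they read 1071, 1092, 1263, 1089 and 1099. In CardioGRKO they read 734, 718, 559, 620 and 596 CPM at ZT0 and 927, 793, 799, 893 and 869 at ZT12. The dark-onset libraries lay above the light-onset libraries in both genotypes without overlap, and the distance between the times was wider in the GRflox hearts.

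The group means were 542 ± 59.6 CPM (SD, n = 5) in GRflox and 645 ± 76.7 in CardioGRKO at ZT0, and 1123 ± 79.2 and 856 ± 58.4 at ZT12. The fitted difference between ZT12 and ZT0 was 1.05 ± 0.08 log2 units (SE), or 2.07-fold, in GRflox, against 0.41 ± 0.08, or 1.33-fold, in CardioGRKO. The genotype difference had opposite signs at the 2 times, 0.25 ± 0.08 at ZT0, where the libraries of the genotypes overlap, and -0.39 ± 0.08 at ZT12, where they do not. The difference between the 2 time effects was -0.64 ± 0.11. These values chose the set and carry no test.

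Glud1 (Entrez 14661; chr14:34310727-34345033, plus strand) showed a small genotype difference. At ZT12 the GRflox libraries read 144, 149, 130, 136 and 148 CPM and the CardioGRKO libraries 115, 125, 103, 124 and 126, with no overlap. Glud1 fell in CardioGRKO at that time by 0.25 ± 0.06 on the log2 scale, 1.19-fold (edgeR, adjusted p = 0.00234). At ZT0 the libraries read 137, 136, 122, 143 and 138 CPM in GRflox and 127, 113, 126, 118 and 129 in CardioGRKO, which overlap. That difference was -0.14 ± 0.06 and did not pass (edgeR, adjusted p = 0.102), although it did without replicate 3 of GRflox at ZT0 (-0.18, adjusted p = 0.0473). The ZT12 call was lost when every library was thinned to the shallowest depth (-0.16, edgeR adjusted p = 0.0825). Between times it differed by 0.06 ± 0.06 (GRflox) and -0.05 ± 0.06 (CardioGRKO), and neither passed (edgeR, adjusted p = 0.498 and 0.707).

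**Figure D1:**
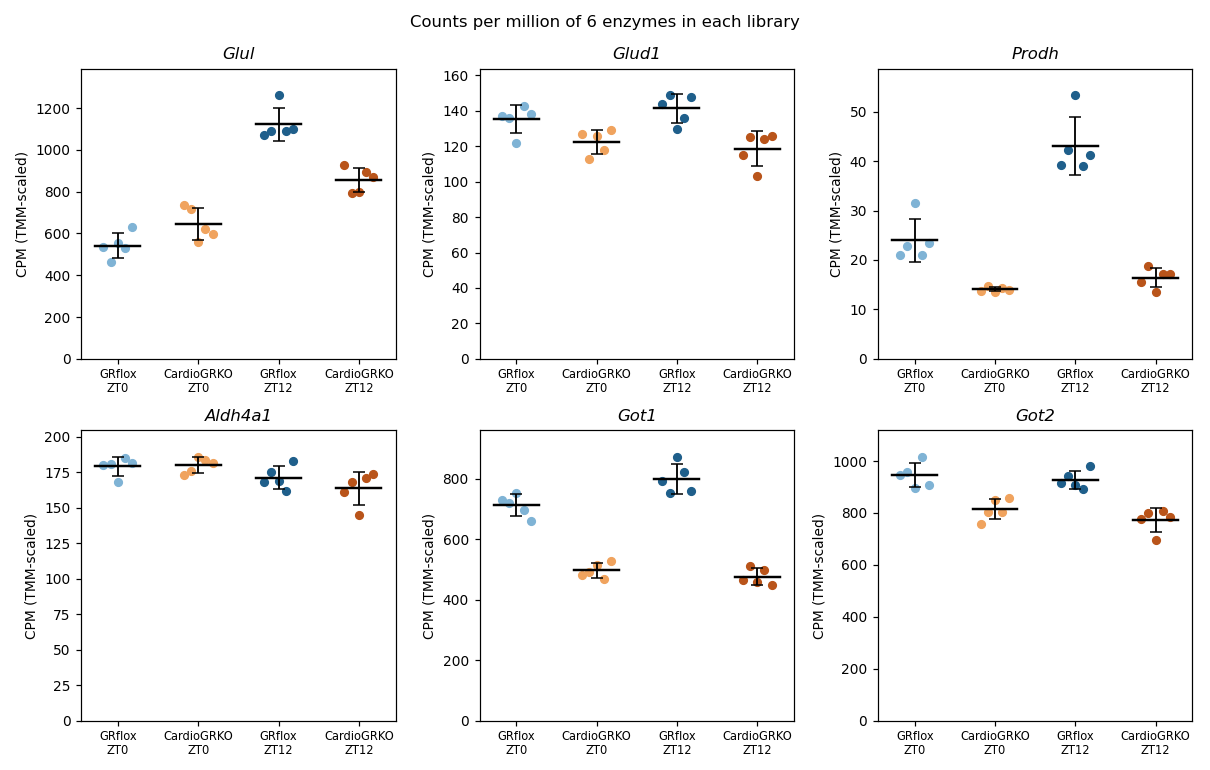
Level of each of the 6 enzymes in every library, in CPM, by group, with 5 points per group and a bar and whiskers for the mean and SD. The Prodh, Got1 and Got2 libraries of CardioGRKO sit below all GRflox libraries, and Glul is highest in GRflox at ZT12, from 1071 to 1263 CPM.

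Prodh (Entrez 19125; chr16:18071726-18089283, minus strand) was the least abundant member and the one with the widest genotype difference. Its GRflox libraries read 21.0, 22.9, 31.5, 21.1 and 23.4 CPM at ZT0 and 39.2, 42.3, 53.4, 39.1 and 41.3 at ZT12. In CardioGRKO they read 13.8, 14.7, 13.6, 14.3 and 13.9 CPM at ZT0 and 15.5, 18.8, 13.6, 17.1 and 17.1 at ZT12. Every CardioGRKO library lay below every GRflox library, also across times, and the lowest raw count behind these values was 84.

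Group means of Prodh were 24.0 ± 4.33 and 43.1 ± 5.96 CPM (SD, n = 5) in GRflox at ZT0 and ZT12, and 14.1 ± 0.434 and 16.4 ± 1.96 in CardioGRKO. The genotype difference was -0.77 ± 0.11 log2 units at ZT0 (1.71-fold) and -1.40 ± 0.10 at ZT12 (2.64-fold). The time difference was 0.84 ± 0.10 in GRflox, without overlap, and 0.21 ± 0.11 in CardioGRKO, where the libraries overlap. Their difference was -0.63 ± 0.15. The CardioGRKO time difference was 0.42 and the interaction -0.40 when the libraries were thinned to the shallowest depth. These values chose the set and carry no test.

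Aldh4a1 (Entrez 212647; chr4:139622871-139649691, plus strand), the next enzyme of proline breakdown, was nearly level. Its libraries read 180, 181, 168, 185 and 182 CPM in GRflox and 173, 176, 186, 184 and 182 in CardioGRKO at ZT0. At ZT12 they read 168, 175, 169, 162 and 183 CPM in GRflox and 161, 168, 145, 171 and 174 in CardioGRKO. All neighbouring groups overlap. The genotype differences were 0.01 ± 0.05 at ZT0 and -0.07 ± 0.05 at ZT12 (edgeR, adjusted p = 0.933 and 0.337). The time difference was -0.06 ± 0.05 in GRflox and -0.14 ± 0.05 in CardioGRKO hearts (edgeR, adjusted p = 0.381 and 0.0577). The last one passed the threshold in 7 of the 26 alternatives. The count ratio of Prodh to Aldh4a1, given as a description, was 0.135 ± 0.0300 in GRflox and 0.0781 ± 0.00395 in CardioGRKO at ZT0, and 0.251 ± 0.0364 and 0.100 ± 0.00712 at ZT12 (SD, n = 5).

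Got1 (Entrez 14718; chr19:43499752-43524605, minus strand), the cytosolic aspartate transaminase, was lower in CardioGRKO at both times. At ZT0 the GRflox libraries read 730, 721, 754, 697 and 660 CPM and the CardioGRKO libraries 481, 492, 515, 468 and 528. At ZT12 they read 791, 754, 872, 823 and 759 CPM against 464, 512, 458, 497 and 449. The genotypes did not overlap at either time.

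Got1 fell in CardioGRKO by 0.52 ± 0.05 on the log2 scale at ZT0, 1.43-fold (edgeR, adjusted p = 1.02e-07). At ZT12 it fell by 0.75 ± 0.05, 1.68-fold (edgeR, adjusted p = 1.8e-10). Both calls held in all 26 alternatives. In GRflox, Got1 rose from ZT0 to ZT12 by 0.17 ± 0.05, 1.12-fold, with overlapping libraries (edgeR, adjusted p = 0.022). Leaving out replicate 4 or 5 of GRflox at ZT0, or replicate 3 or 4 of GRflox at ZT12, ended that call (edgeR, adjusted p = 0.0507, 0.0686, 0.0791 and 0.0520). In CardioGRKO the time difference was -0.06 ± 0.05 (edgeR, adjusted p = 0.515), and the difference between the time effects, -0.23 ± 0.07, did not pass (edgeR, adjusted p = 0.372).

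Got2 (Entrez 14719; chr8:95864133-95888401, minus strand), the mitochondrial transaminase, had a smaller difference in the same direction. Its libraries read 947, 959, 897, 1016 and 908 CPM in GRflox and 759, 803, 851, 805 and 857 in CardioGRKO at ZT0. At ZT12 they read 914, 943, 909, 894 and 982 CPM in GRflox and 775, 799, 694, 809 and 785 in CardioGRKO. The genotypes did not overlap at either time.

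Got2 fell in CardioGRKO by 0.21 ± 0.05 on the log2 scale at ZT0 and by 0.26 ± 0.05 at ZT12 (edgeR, adjusted p = 0.0027 and 0.000198), and both calls held in all 26 alternatives. Neither time difference passed, at -0.03 ± 0.05 for GRflox and -0.08 ± 0.05 for CardioGRKO (edgeR, adjusted p = 0.756 and 0.357).

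The ratio of Got2 to Got1 counts within a library does not depend on library scaling. It read 1.30, 1.33, 1.19, 1.46 and 1.38 in GRflox and 1.58, 1.63, 1.65, 1.72 and 1.62 in CardioGRKO at ZT0. At ZT12 it read 1.16, 1.25, 1.04, 1.09 and 1.29 in GRflox and 1.67, 1.56, 1.52, 1.63 and 1.75 in CardioGRKO. The CardioGRKO libraries lay above the GRflox libraries at both times, so the cytosolic transcript was lower by more than the mitochondrial one.

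The log2 ratio of Got2 to Got1 was higher in CardioGRKO by 0.30 at ZT0 and by 0.48 at ZT12, in 5 of 5 libraries each time. In both comparisons the 2-sided exact permutation test gave p = 0.00794, the smallest that 5 against 5 allows, and an adjusted p of 0.0159 over 4 tests. Between times the difference was -0.19 in GRflox (exact permutation p = 0.0397, adjusted 0.0529) and -0.02 in CardioGRKO (exact permutation p = 0.754, adjusted 0.754). The Glul to Glud1 ratio, given with no test, was 4.02 ± 0.511 and 7.99 ± 0.998 in GRflox at ZT0 and ZT12, and 5.29 ± 0.806 and 7.26 ± 0.693 in CardioGRKO (SD, n = 5).

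**Figure D2:**
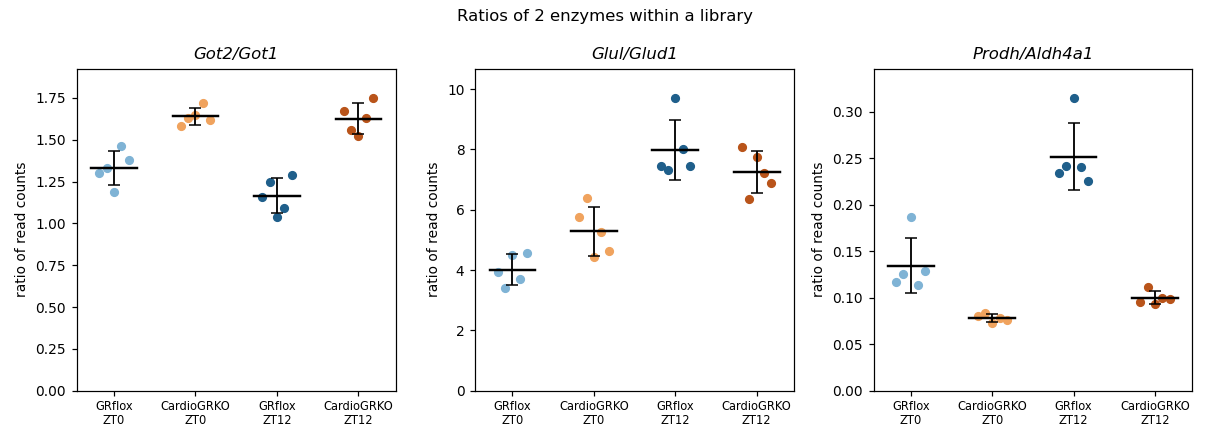
Ratio of counts between paired enzymes in every library, by group, with 5 points per group and the mean and SD. The Got2 to Got1 ratio is 1.58 or more in CardioGRKO at ZT0 and 1.46 or less in GRflox at ZT0, while the other ratios are shown as a description only.

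Among the 4 members that did not choose the set, edgeR called 2 lower in CardioGRKO at ZT0 and 3 lower at ZT12, none higher at either time. Over all 14007 genes tested, 14.7% were called between genotypes at ZT0 (7.36% higher and 7.35% lower) and 21.1% at ZT12 (10.4% higher and 10.7% lower). Between times 1 of these 4 was called in GRflox, Got1, beside 17.3% of all genes (8.13% higher and 9.17% lower). In CardioGRKO edgeR called 0 of them between times, with 1 at an unadjusted p under 0.05 and 1 called by DESeq2, beside 9.17% of all genes (4.42% higher and 4.75% lower). For the interaction edgeR called 0 of the 4, with 1 at an unadjusted p under 0.05 and 0 by DESeq2, beside 0.186% of all genes.

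Counted over all 6 members, the ranges of the compared groups did not overlap for 3 between genotypes at ZT0, 5 at ZT12, 2 between times in GRflox and 1 in CardioGRKO. The same held for 11.9%, 13.8%, 12.5% and 7.11% of the genes tested. Glul and Prodh are among these counts and were picked for such patterns, so nothing is read from them.

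**Figure D3:**
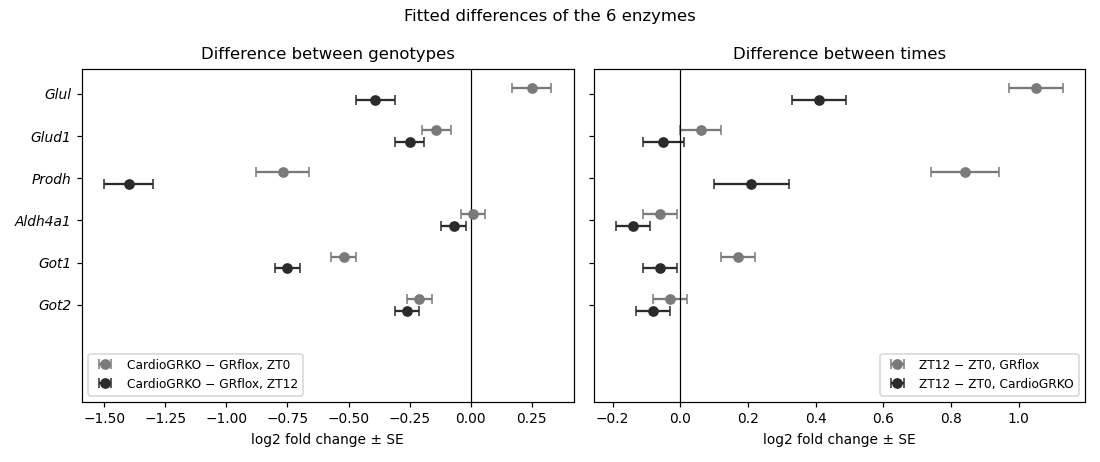
Fitted log2 difference of each of the 6 enzymes with its SE, for the genotype effect at each time and the time effect in each genotype, with n = 5 libraries per group. Prodh reaches -1.40 between genotypes at ZT12 and Glul 1.05 between times in GRflox, while Aldh4a1 stays within 0.14 of 0 in each.

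To compare levels between genes, CPM was divided by the length of the GENCODE M21 exons in kilobases. In GRflox at ZT0 Got2 stood at 374 ± 18.6 and Got1 at 346 ± 17.4 CPM per kilobase, Glul at 194 ± 21.4, Aldh4a1 at 53.0 ± 1.90, Glud1 at 39.9 ± 2.31 and Prodh at 8.43 ± 1.52 (SD, n = 5). In GRflox at ZT12 Glul reached 402 ± 28.4, beside 388 ± 23.8 for Got1 and 367 ± 13.8 for Got2, whose ranges overlap. In CardioGRKO at ZT12 Glul stood at 307 ± 20.9, Got2 at 305 ± 18.1 and Got1 at 231 ± 13.3. Prodh remained the lowest of the 6 in every group.

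The group levels of each gene were also ordered. For Glul the order from low to high was GRflox ZT0, CardioGRKO ZT0, CardioGRKO ZT12 and GRflox ZT12, and only the lowest pair overlap. For Prodh it was CardioGRKO ZT0, CardioGRKO ZT12, GRflox ZT0 and GRflox ZT12, and again only the lowest pair overlap. For Got1 and Got2 both CardioGRKO groups lay below both GRflox groups, and the groups of 1 genotype overlap. For Glud1 and Aldh4a1 all neighbours overlap.

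Shared sequence limits some of these counts, since the sources used here do not give how the counting treated strand and reads with several matches. Of the 75-base windows of each gene's transcripts, 28.7% of Aldh4a1 also lie in Gm21969, which overlaps it on the same strand, and 19.3% of Got2 also lie in Gm10874, Got2-ps1 or Gm45760, the last on the opposite strand. The share was 6.63% for Glul, among others with Glns-ps1, and 4.62% for Glud1 with Gm43444 and Glud-ps. It was 0 for Prodh and Got1. By exon bases, Gm21969 covers 47.2% of Aldh4a1 on the same strand and Gm45760 covers 15% of Got2 on the opposite strand.

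The other genes of the network were taken as 10 lists of 68 genes without the 6 members, of which 57 were tested. Between genotypes at ZT0, 7 rose and 9 fell in CardioGRKO (28.1% called against 14.7% of all genes, median log2 difference 0.01 against -0.01). At ZT12, 9 rose and 11 fell (35.1% called against 21.1% of all genes, median 0.04 against 0.00). The ZT0 count was 10 without replicate 1 of CardioGRKO, the shallowest library, and 9 without replicate 1 of GRflox. Of the called genes 5 were higher and 8 lower at both times, and 0 had opposite directions.

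Of the 7 genes of the malate-aspartate shuttle, Got1 and Got2 included, 5 were called lower in CardioGRKO at ZT0 and 6 at ZT12, with median log2 differences of -0.14 and -0.21. Without Got1 and Got2, already reported above, 3 of the other 5 genes were called lower at ZT0 and 4 at ZT12. Over all genes 7.35% and 10.7% were called lower. Slc25a12, the aspartate-glutamate carrier of muscle, fell from 320 ± 7.70 to 277 ± 12.9 CPM at ZT0 and from 332 ± 10.9 to 273 ± 10.7 at ZT12 (log2 difference -0.21 and -0.28, edgeR adjusted p = 0.000728 and 9.37e-06). The malate dehydrogenases Mdh1 in the cytosol and Mdh2 in mitochondria fell at ZT12 by 0.21 and 0.18 on the log2 scale (edgeR, adjusted p = 0.000474 and 0.00342). At ZT0 their differences were -0.13 and -0.14 (edgeR, adjusted p = 0.0286 and 0.0303), and each call was lost in 8 of the 26 alternatives. The ZT0 count of the shuttle was 3 without any 1 of replicates 1 and 2 of GRflox or replicates 1 and 2 of CardioGRKO. Got1 and Got2 are among those 3, and the count of the other 5 genes was then 1. Slc25a11, the oxoglutarate carrier, did not pass at ZT12 (-0.16 ± 0.06, edgeR adjusted p = 0.0691).

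Of the 9 other glutamate-linked transaminases tested, 4 were lower in CardioGRKO at ZT0 and 5 at ZT12, and none higher (medians -0.14 and -0.25), beside 7.35% and 10.7% of all genes called lower. Gpt, the cytosolic alanine transaminase, is among the 4 at ZT0 (-0.22 ± 0.08, edgeR adjusted p = 0.0491), and its call there was lost in 17 of the 26 alternatives. Gpt2, the mitochondrial alanine transaminase, read 57.7, 64.2, 65.0, 66.3 and 70.6 CPM in GRflox and 37.9, 48.7, 47.8, 45.8 and 45.6 in CardioGRKO at ZT0. At ZT12 it read 81.1, 80.0, 83.9, 83.9 and 88.2 CPM against 46.9, 50.3, 45.3, 55.3 and 48.5. The genotypes did not overlap, and the differences were -0.51 ± 0.06 and -0.76 ± 0.06 (edgeR, adjusted p = 4.43e-06 and 3.71e-09). Gpt2 also rose from ZT0 to ZT12 in GRflox (0.36 ± 0.06, edgeR adjusted p = 0.000156), with 0.11 ± 0.06 in CardioGRKO (edgeR, adjusted p = 0.32) and no call for the interaction (-0.25 ± 0.09, edgeR adjusted p = 0.529).

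Oat, ornithine aminotransferase, which links ornithine to the proline pathway, fell from 148 ± 2.15 to 123 ± 4.19 CPM at ZT0 and from 150 ± 3.78 to 115 ± 5.02 at ZT12 (edgeR, adjusted p = 1.26e-05 and 4.88e-08). Ccbl2, a kynurenine and glutamine transaminase, fell by 0.41 and 0.62 on the log2 scale (edgeR, adjusted p = 0.000868 and 2.81e-06). Bcat2, the mitochondrial branched-chain transaminase, fell at ZT12 by 0.25 (edgeR, adjusted p = 0.000768). Aldh5a1, succinate semialdehyde dehydrogenase of the GABA shunt, fell from 73.4 ± 0.325 to 57.0 ± 0.856 CPM at ZT0 and from 65.4 ± 2.73 to 53.2 ± 2.04 at ZT12 (edgeR, adjusted p = 3.59e-07 and 3.05e-06).

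Of 14 transporters tested, 2 rose in CardioGRKO at ZT0 and 4 at ZT12, and none fell (medians 0.07 and 0.12). The shares called, 14.3% and 28.6%, all higher, stand beside 7.36% and 10.4% of all genes called higher. In either direction 14.7% and 21.1% of all genes were called, and the ZT0 share is near that. Slc38a1, a sodium-coupled glutamine transporter, read 18.8, 22.2, 23.6, 21.8 and 25.2 CPM in GRflox and 53.0, 48.8, 47.8, 54.8 and 45.7 in CardioGRKO at ZT0. At ZT12 the means were 24.8 ± 3.71 and 54.9 ± 4.55 CPM (SD, n = 5). Every CardioGRKO library was above every GRflox library, with differences of 1.16 ± 0.09 and 1.14 ± 0.09 log2 units (edgeR, adjusted p = 3.46e-09 and 1.53e-09).

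Slc38a4, another amino acid transporter of that family, rose in CardioGRKO by 0.50 ± 0.10 at ZT0 and 0.93 ± 0.10 at ZT12 (edgeR, adjusted p = 0.000674 and 2.01e-07). The cytidine triphosphate synthase Ctps, which uses glutamine as its nitrogen donor, rose from 38.4 ± 2.88 to 53.3 ± 3.30 CPM at ZT0 and from 38.4 ± 1.78 to 47.3 ± 2.99 at ZT12 (edgeR, adjusted p = 4.04e-06 and 0.000369). Pycr1, a pyrroline-5-carboxylate reductase that makes proline, rose at ZT12 (0.78 ± 0.26, edgeR adjusted p = 0.0312). It had no more than 1.32 CPM in any group mean, and the call was lost without replicate 3 or 5 of GRflox or replicate 3, 4 or 5 of CardioGRKO at that time.

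The remaining lists held few calls between genotypes. Over all genes 7.36% were called higher and 7.35% lower at ZT0, and 10.4% and 10.7% at ZT12. Both tested genes of ornithine and arginine metabolism, Asl (argininosuccinate lyase) and Odc1 (ornithine decarboxylase), were higher in CardioGRKO at ZT0 (0.57 and 0.18, edgeR adjusted p = 0.0153 and 0.0494) and at ZT12 (0.59 and 0.24, edgeR adjusted p = 0.00652 and 0.00627). Odc1 at ZT0 lost its call in 14 of the 26 alternatives, and Asl at ZT12 lost its call when the libraries were thinned to the shallowest depth. Of 10 glutamine-using amidotransferases 2 rose at ZT0, Ctps and Ppat, and 1 at ZT12 (10%), where the share is near that of all genes called higher. Ppat at ZT0 (0.21 ± 0.07, edgeR adjusted p = 0.0491) lost its call in 13 alternatives. Of 5 genes of proline and hydroxyproline turnover 1 rose at ZT0, Pepd, a dipeptidase that frees proline (0.19 ± 0.06, edgeR adjusted p = 0.0285), and that call was lost in 6 alternatives. Slc25a22, a mitochondrial glutamate carrier and the 1 tested gene of its list, fell at ZT0 (-0.38 ± 0.10, edgeR adjusted p = 0.0135), a call lost without replicate 1 of GRflox at ZT0, and differed by 0.09 ± 0.10 at ZT12 (edgeR, adjusted p = 0.597).

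**Figure D4:**
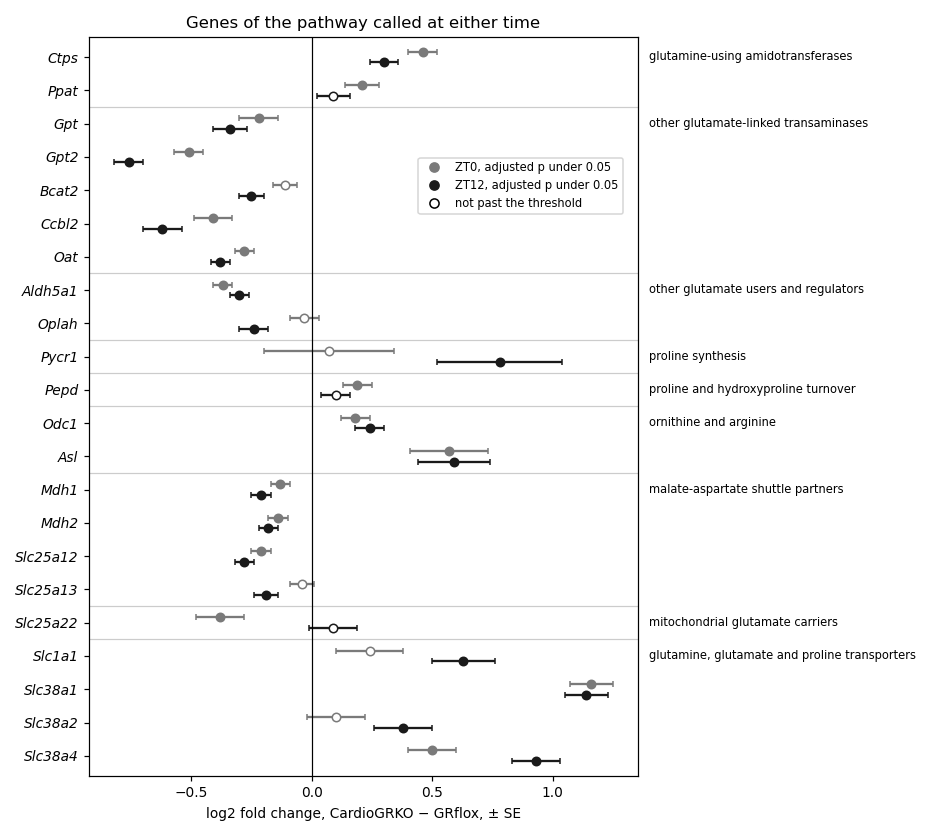
Fitted log2 difference between CardioGRKO and GRflox with its SE, at ZT0 (grey) and ZT12 (black), for other genes of the network called at either time and reported here, grouped by list, with open points for values past no threshold. Slc38a1 stands at 1.16 and 1.14 and Gpt2 at -0.51 and -0.76.

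Between times, 9 of the 57 rose and 4 fell in GRflox (22.8% called against 17.3% of all genes, median 0.02). In CardioGRKO 4 rose and 2 fell (10.5% called against 9.17% of all genes, median 0.03), a share near that of all genes. With 1 library left out the fallen count ran from 1 to 4: it was 1 without replicate 2 at ZT0 or replicate 2 or 5 at ZT12 of CardioGRKO, and 4 without replicate 3 at ZT12 of that genotype. The GRflox and CardioGRKO lists had 4 risen genes and 1 fallen gene in common. L3hypdh, 1 of these 4 risen genes, lost its call in 18 of the 26 alternatives in GRflox and in 5 in CardioGRKO. Pepd, also risen in GRflox, lost its call there in 10. Slc1a5, a neutral amino acid exchanger that carries glutamine, stood at 14.9 ± 0.802 CPM in GRflox at ZT0 and 26.5 ± 1.75 at ZT12, and at 15.6 ± 1.65 and 27.5 ± 3.21 in CardioGRKO (SD, n = 5). The times did not overlap in either genotype, and the difference was 0.83 ± 0.08 log2 units in both (edgeR, adjusted p = 3.8e-08 in GRflox and 1.07e-07 in CardioGRKO).

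Ppat, the first enzyme of purine synthesis and a glutamine user, rose by 0.55 ± 0.07 in the GRflox and 0.43 ± 0.07 in the CardioGRKO hearts (edgeR, adjusted p = 4.59e-06 and 0.000249). Gclm, the modifier subunit of the enzyme that starts glutathione synthesis from glutamate, rose by 0.57 ± 0.10 and 0.53 ± 0.10 (edgeR, adjusted p = 0.00017 and 0.000716). The glutamine transporter Slc38a2 fell by 0.67 ± 0.12 and 0.40 ± 0.12 (edgeR, adjusted p = 0.000216 and 0.0315). The CardioGRKO call was lost without replicate 2 at ZT0 or replicate 2, 4 or 5 at ZT12 of that genotype. For the interaction edgeR called 0 of the 57, beside 0.186% of all genes, so 0 is near the background. Of the 57, 6 had an unadjusted p under 0.05, beside 839 of the 14007 genes tested, and DESeq2 called 0.

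The genes whose pattern over the 20 libraries lay nearest to Glul were found by the root mean square difference of log2 CPM, each gene centred on its own mean, among 11357 genes with a mean log2 CPM of at least 1. They were Usp54 (0.175), Rnf144b (0.182), Ahnak (0.186), Ly6c1 (0.191), Mtmr14 (0.198) and Pik3ip1 (0.201), beside a spread of 0.420 for Glul around its own mean. Rnf144b, a ubiquitin ligase, went from 26.8 ± 4.07 to 51.9 ± 6.89 CPM in GRflox and from 31.0 ± 2.02 to 33.1 ± 3.97 in CardioGRKO between ZT0 and ZT12 (SD, n = 5). Ahnak, a large scaffold protein, went from 347 ± 21.3 to 613 ± 19.3 CPM and from 376 ± 33.1 to 597 ± 68.2.

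The genes nearest to Prodh were Mettl20 (0.187), Pik3r1 (0.191), Tfdp2 (0.210), Acot11 (0.218), Tob2 (0.226) and Raph1 (0.226), beside a spread of 0.637 for Prodh. Pik3r1, a regulatory subunit of phosphoinositide 3-kinase, stood at 185 ± 10.7 and 396 ± 64.9 CPM in GRflox at ZT0 and ZT12, and at 116 ± 7.33 and 129 ± 12.7 in CardioGRKO (SD, n = 5). Mettl20 stood at 9.12 ± 0.877 and 16.1 ± 2.37 CPM in GRflox and 5.15 ± 0.850 and 6.40 ± 0.738 in CardioGRKO. Between members, Prodh lay nearer to Got1 (0.366) than to Glul (0.536). These distances share libraries and scaling and are a description with no test.

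**Figure D5:**
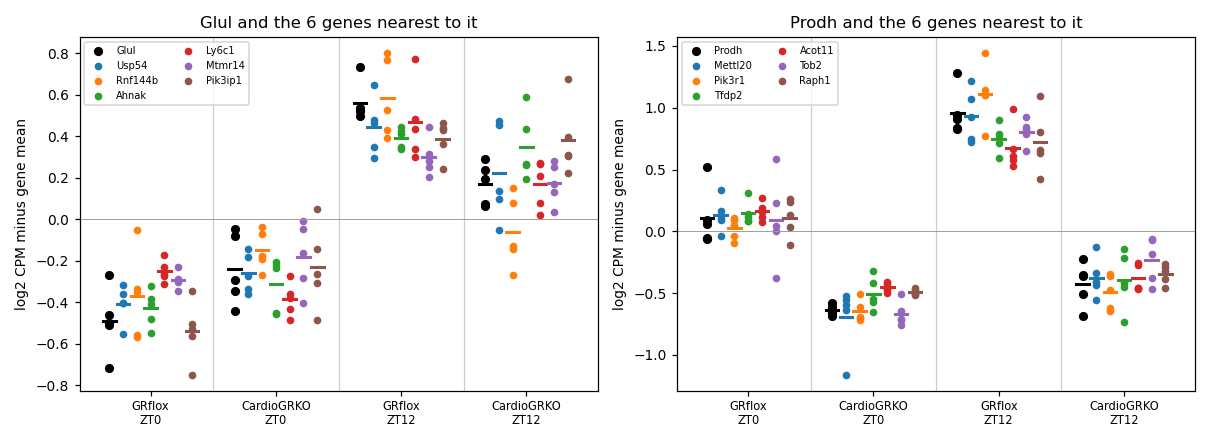
Centred log2 CPM of Glul and of Prodh in the 20 libraries, each with the 6 genes of nearest pattern, by group, with points for libraries and bars for group means. The nearest gene differs by a root mean square of 0.175 for Glul (Usp54) and 0.187 for Prodh (Mettl20).

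Other cell type measures moved with the genotype. Over all genes 7.35% were called lower and 7.36% higher in CardioGRKO at ZT0, and 10.7% and 10.4% at ZT12, the background for each list here. Of 7 cardiomyocyte markers 4 were lower in CardioGRKO at ZT0 and 5 at ZT12. The mean of Actc1 was higher there without passing, 11375 against 10476 CPM at ZT0 and 10252 against 9595 at ZT12. The 7 markers summed to 98915 to 103337 CPM in GRflox and 86996 to 93854 in CardioGRKO at ZT0, and 101686 to 107011 and 85890 to 99128 at ZT12. Myh6 is the largest part of that sum, with a mean of 56062 CPM in GRflox at ZT0. Of 6 endothelial markers 4 were lower at ZT0 and 3 at ZT12 in CardioGRKO. Between times 4 were lower at ZT12 than at ZT0 in GRflox and 3 in CardioGRKO, beside 9.17% and 4.75% of all genes. The mean of Esam was higher at ZT12 without passing, 51.0 against 47.1 CPM in GRflox and 41.9 against 41.3 in CardioGRKO. The endothelial sum was 1242 to 1372 and 1076 to 1196 CPM at ZT0, and 991 to 1079 and 861 to 1004 at ZT12, in GRflox and CardioGRKO. The sum of the 5 fibroblast markers ran from 776 to 983 CPM over all groups, with 0 called between genotypes by edgeR, and that of the 5 macrophage markers from 146 to 208. The 5 markers of pericytes and smooth muscle included 2 called lower in CardioGRKO at ZT0 and 1 at ZT12, with sums of 1128 to 1255 and 979 to 1172 CPM at ZT0, and 1119 to 1327 and 948 to 1228 at ZT12, in GRflox and CardioGRKO. Of 3 atrial markers 1, Nppa, was higher at both times, with group means of 65.3 and 191 CPM at ZT0 and 96.1 and 238 at ZT12, while the means of Sln and Myl7 were lower in CardioGRKO without passing. In bulk tissue fewer cells of a type and less RNA per cell cannot be told apart, and the part of these shifts in the enzyme differences was not tested.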

How the data were processed

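The authors deposited 1 table of raw read counts per gene for each of the 20 libraries. Per the submitters' processing notes the named tools are STAR 2.5.1, Subread 1.5.1 (featureCounts) and DESeq2 1.38.3, the build is mm10, and per the labels' protocols the libraries were poly(A)-enriched and read as 75-base pairs on a NovaSeq 6000. The sources used here do not give the strand setting, the treatment of reads with several matches or the annotation release.

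Of 24918 lines per table, those that name the same Entrez gene were added up, giving 24059 genes. Genes were kept by filterByExpr (minimum count 10, minimum total 15), which left 14007. Counts as deposited were fitted with the quasi-likelihood test of edgeR 4.0.16 in R 4.3.3, as 4 group means with TMM scaling (factors 0.961 to 1.040) and 5 contrasts, with Benjamini-Hochberg adjustment over all 14007 genes and a threshold of 0.05. TMM factors also scale the CPM, whose log2 form has a prior count of 2. Ratios of counts were tested with exact permutation tests in scipy 1.17.1. The code was tested on simulated data. No pair of replicates agreed within sampling noise (chi-square per gene 4.22 to 20.96).

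Named genes are Nr3c1, the 6 members, genes of the pathway lists (called genes with the smallest p first) and the 6 genes nearest in pattern to Glul and to Prodh, without provisional names. The members, lists and tests were chosen with earlier results of these data known. Alternatives were other scaling, no filter, DESeq2 1.42.0, a replicate block, thinning to 5854462 counts and leaving out each library in turn. Some genes of the lists are counted but not reported here by name.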

Additional observations from a re-analysis of the deposited data

Results flagged for a closer look

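As a screen for single libraries, and not a test of the differences that chose the set, the gap of the highest or lowest library to its nearest neighbour was divided by the range in 24 member groups of 5 libraries. It passed Dixon's 95% critical value for 5 samples, 0.71, in 3 groups, all of Glul or Prodh. Glul in GRflox at ZT12 had a highest library of 1263 CPM (0.854). Prodh had a highest library of 31.5 CPM in GRflox at ZT0 (0.773) and of 53.4 CPM in GRflox at ZT12 (0.773). Each was replicate 3 of its group. Chance flags about 1 in 20 groups, and these flags support nothing in the report.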

How the results depend on the processing

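Of 20 results for the 4 members that did not choose the set, 14 kept their direction and side of the threshold in every alternative run for them (26, or 25 for the interaction), and of 55 for pathway genes 38 did. Thinning every library to the shallowest depth gave 1350 and 1885 calls between genotypes at ZT0 and ZT12 and 1466 and 808 between times in GRflox and CardioGRKO, against 2060, 2952, 2423 and 1284, and fewer reads is the construction of that setting. DESeq2 called 69 genes for the interaction, against 26, and the cause was not tested. With 1 library left out the interaction count ran from 16 to 33 and the pathway count at ZT0 from 9 to 17. With 1 library left out 3 single values also changed sign: Aldh4a1 between genotypes at ZT0 ran from -0.01 to 0.03, Got2 between times in GRflox from -0.05 to 0.00, and Nr3c1 for the interaction from -0.06 to 0.02. With a replicate block the counts were 2194, 3111, 2513, 1359 and 38 for the 5 contrasts, and 15, 22, 12, 6 and 0 for the pathway genes. The replicate numbers showed no common pairing of the samples (30 same-number pairs, correlation of deviations -0.272 to 0.234, median 0.0295, against -0.0046 for other pairs). Whether some of the numbers share a batch was not tested, and nothing is read from the block. Thinning also ended the calls of Glud1, Asl and Slc1a1 between genotypes at ZT12.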
